A study of Mus musculus with 8 samples.

Results

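Caloric restriction moves the liver from glucose to fat as its fuel, and binding of the glucocorticoid receptor (GR) and of FOXO1 was therefore examined around 6 genes of fatty acid oxidation and ketogenesis: Cpt1a, Acadm, Ehhadh, Bdh1, Pdk4 and Fgf21. These are 6 of 21911 protein-coding genes of GENCODE release M21 on chromosomes 1 to 19, X and Y. Overlapping GR peaks of 6 libraries were merged into sites, and every site or FOXO1 region centred within 50 kb of a gene start was assigned to that gene. This gave 63 of 51428 merged GR sites and 13 of 8053 FOXO1 regions. The window is a rule of distance and does not show that a site acts on the gene.

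In the fasted liver, fatty acids released by adipose tissue are carried into mitochondria, shortened by beta-oxidation and in part turned into ketone bodies for other organs. GR, the receptor for corticosterone, and FOXO1, a forkhead factor held out of the nucleus by insulin signalling, are both active in the fasted state. Glucocorticoids are known to raise hepatic fat oxidation and glucose production together with the nuclear receptor PPARα.

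Chromatin immunoprecipitation with sequencing (ChIP-seq) had been done on whole liver of male C57BL/6J mice collected at lights-off, all on regular chow. The control group (ctrl.) was fed only during the night. The cal. res. group had its food reduced in steps and was fed at lights-off, and the CORT group was night-fed like ctrl. and was given corticosterone by daily intraperitoneal injection. By the paper's methods, corticosterone was given over days after a period of handling, and food was reduced over weeks. The length of treatment and the handling thus differed between CORT and cal. res. along with the treatment itself. Ages and doses are not given here. Each group had 2 GR libraries, described as biological replicates, and the ctrl. labels name no vehicle injection. FOXO1 was precipitated from cal. res. livers only, and its 2 libraries were merged by the authors into 1 list, so FOXO1 values carry no replicate spread and have no control group. Whole liver mixes hepatocytes with other cells, and a change in binding per cell cannot be told apart from a change in the number of cells. The lists hold no expression values, so the tissue label was not checked against marker genes.

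The GR lists differed in length, most of all within ctrl., with 36231 regions in ctrl. replicate 1 and 12456 in ctrl. replicate 2, the shortest list. The cal. res. lists held 22704 and 18744 regions and the CORT lists 29470 and 39133. Ctrl. replicate 2 and both cal. res. libraries carry one style of library name, and ctrl. replicate 1 and both CORT libraries the other. The labels do not say what the style marks, and a difference between cal. res. and CORT cannot be told apart from it. Read totals per library were not analysed here. Fold enrichment over local background is comparable only within a list, so each peak is given by its percentile, its rank by fold enrichment among the regions of its own list in percent, with 100 for the strongest; pairs of percentiles are in the order of replicate 1 and replicate 2. A site present in every list ranks lower in a short list: the median percentile of all such sites was 85.7 and 61.3 in ctrl., 76.3 and 71.5 for cal. res. and 81.9 and 87.1 for CORT. Differences in percentile between libraries hold this offset, and the scores given further on for sites present in all lists do not. A site was counted as held by a group when it carried a peak in each of that group's 2 lists, and as gained when cal. res. or CORT held it and ctrl. did not.

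**Figure D1:**
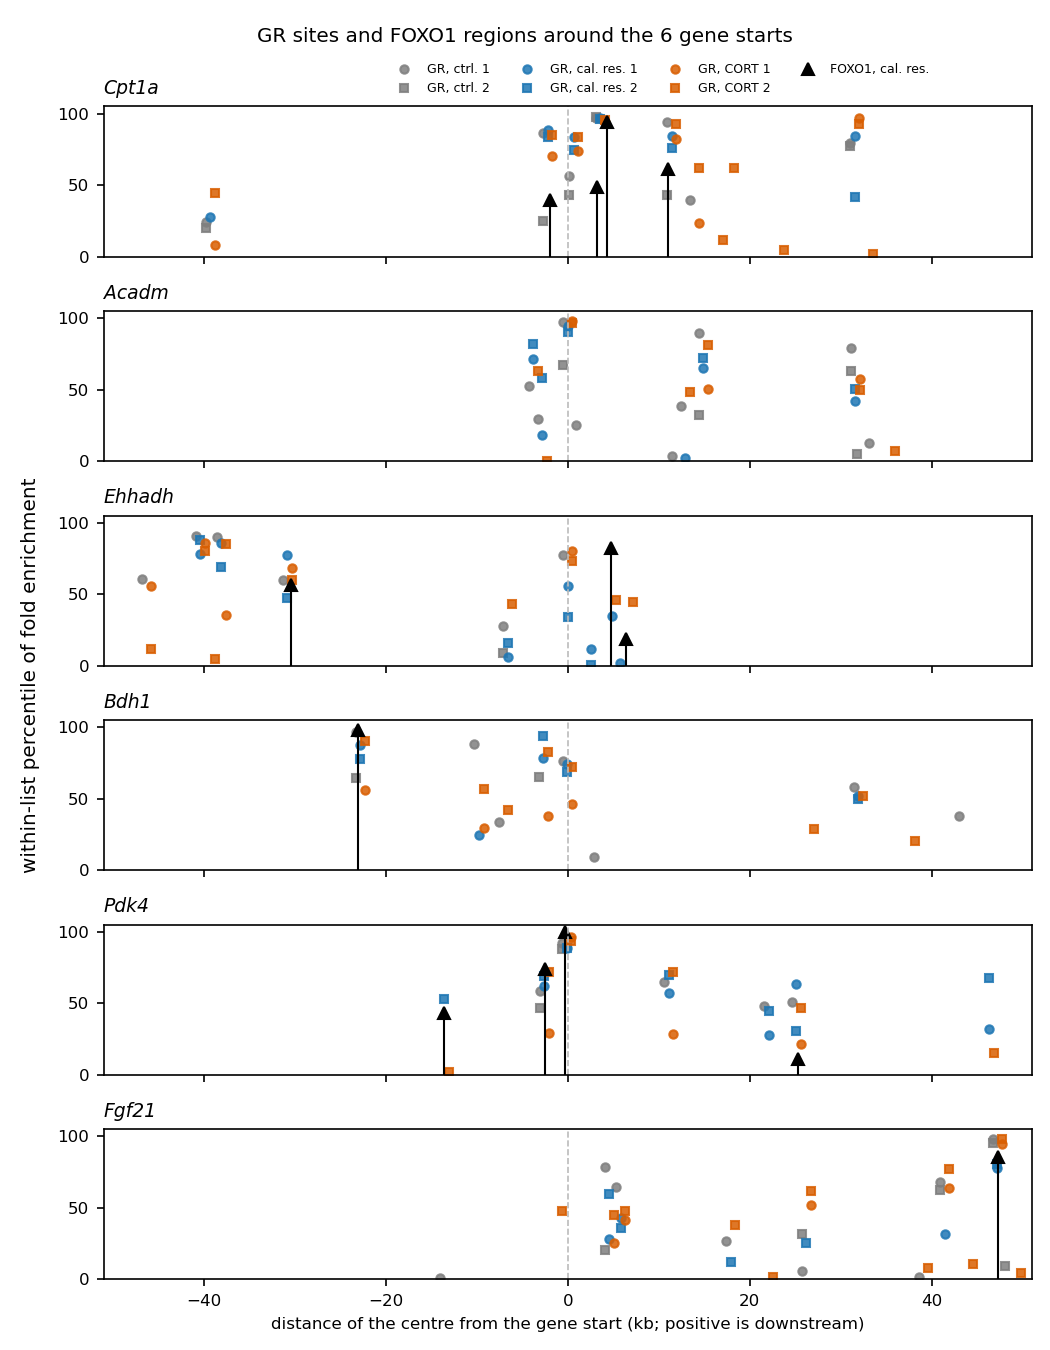
Within-list percentile of fold enrichment (vertical axis, 0 to 100) against the distance of the centre from the gene start (horizontal axis, kb) for the GR sites and FOXO1 regions of each gene; circles are replicate 1, squares replicate 2, triangles on stems FOXO1, and the 3 groups are shifted sideways so that fewer symbols overlap. At Pdk4 the strongest GR and FOXO1 peaks both lie at the start, while at Bdh1 and Fgf21 they lie 22.8 kb upstream and 47.2 kb downstream.

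Cal. res. livers held 29 of the 63 sites (46%), against 27.9% of all merged sites. CORT livers held 28 (44.4%), against 43.7% of all sites, and ctrl. livers held 17 (27%), against 21.4%. Sites not held by ctrl. included 15 gained in cal. res. (23.8%, all sites 11.5%) and 12 in CORT (19%, all sites 24.3%). The 2 gains shared 9 sites, which is 75% of the CORT gains here, against 37.5% of CORT gains over all sites. Of all 63 sites, 13 had a peak in all 6 lists (20.6%, all sites 15.7%) and 22 in 1 list only (34.9%, all sites 37.4%). No group held 28 of them (44.4%, all sites 51.9%). FOXO1 overlapped 12 sites (19%, all sites 13.9%), and the centre of 10 sites (15.9%, all sites 18.8%) lay within 1 kb of a protein-coding start.

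The count of gained sites depended on which ctrl. libraries were used, at the 6 genes and over all sites. Among these 15 cal. res. sites, ctrl. replicate 1 showed a peak at 12 (80%, all sites gained in cal. res. 91.8%). Ctrl. replicate 2 showed one at 1 (6.67%, all such sites 0.929%). Neither showed one at 2 (13.3%, all such sites 7.31%): one in an Ehhadh intron and one 46.3 kb downstream of the Pdk4 start. When ctrl. replicate 2 was left out, ctrl. replicate 1 alone defined ctrl. and 61 sites remained. Of these, 3 were gained in cal. res. (4.92%, all sites 0.955%) and 1 in CORT (1.64%, all sites 4.63%). When ctrl. replicate 1 was left out, 57 sites remained. Of those, 14 were gained in cal. res. (24.6%, all sites 12.9%) and 11 in CORT (19.3%, all sites 27%). The first of these sets, CORT against the ctrl. library of the same name style, gave 1 gain (1.64%, all sites 4.63%). The second, cal. res. against the ctrl. library of its own name style, gave 14 (24.6%, all sites 12.9%). The ctrl. list held 36231 regions in the first set and 12456 in the second, so the 1 and the 14 are not on one footing. When a peak in either library was enough, the order of ctrl. and cal. res. turned: ctrl. held 45 sites (71.4%, all sites 68.6%), cal. res. 38 (60.3%, all sites 46.1%) and CORT 52 (82.5%, all sites 83.7%), with 5 gained in cal. res. (7.94%, all sites 5.55%) and 16 in CORT (25.4%, all sites 28.9%).

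With the same number of regions from each library, 12456 by smallest p-value, 35 sites remained in the windows. Cal. res. then held 22 of them (62.9%, all sites 42.5%), and ctrl. and CORT held 11 each (31.4%, all sites 36% for ctrl. and 42.2% for CORT). Gains were 12 in cal. res. (34.3%, all sites 16%) and 4 in CORT (11.4%, all sites 15.2%). On this footing the near-equal numbers of cal. res. and CORT sites in the full lists became 22 against 11, and the difference arose at Bdh1, with 4 sites under cal. res. and 0 under CORT, at Acadm, with 4 and 1, at Pdk4, with 4 and 1, and at Ehhadh, with 4 and 2. Cpt1a had 5 in both groups and Fgf21 had 1 under cal. res. and 2 under CORT. The 2 CORT libraries differed here. In the full lists CORT replicate 1 had a peak at 28 of the 63 sites (44.4%, all sites 53.8%) and CORT replicate 2 at 52 (82.5%, all sites 73.6%). CORT held 4 Bdh1 sites in the full lists. At the strongest Bdh1 site, with an equal number of regions, CORT replicate 2 stood at 70.5 and CORT replicate 1 had no peak.

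**Figure D2:**
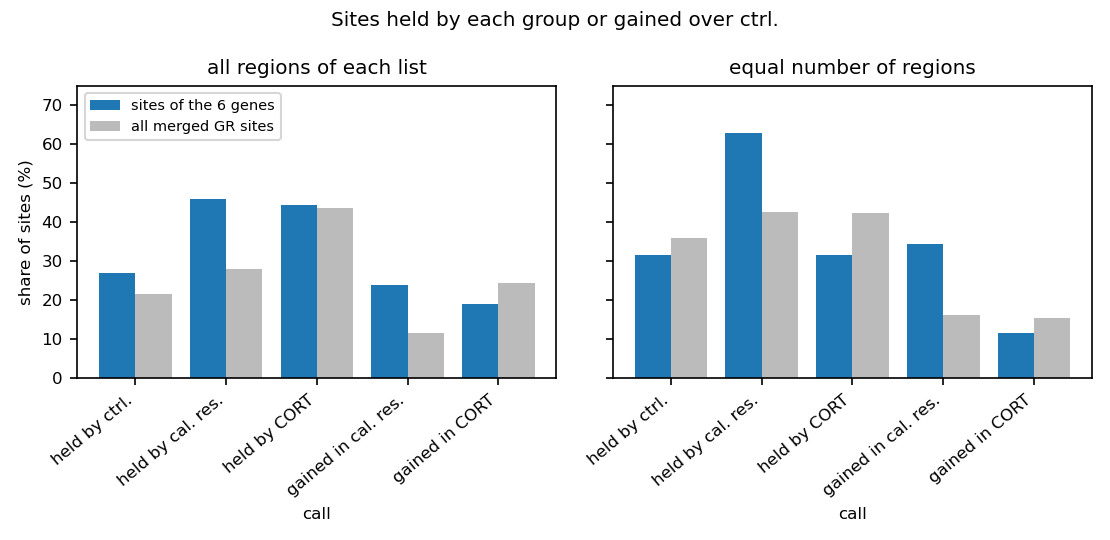
Share of sites (vertical axis, %) held by each group or gained over ctrl., for the sites of the 6 genes (blue) and all merged GR sites (grey), with all regions of each list on the left and an equal number per list on the right. Cal. res. held 46% of the sites of the 6 genes on the left and 62.9% on the right, against 27.9% and 42.5% of all sites.

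Every one of the 6 genes had at least 1 site held by cal. res., as had 47.2% of all protein-coding genes. The windows of these genes were rich in sites: the median was 11 per gene, against 3 over all protein-coding genes and 7 over those with a cal. res. site. A FOXO1 region lay within 50 kb of 5 of the 6 genes and of 33.3% of all protein-coding genes, and Acadm was the gene without one.

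Cpt1a (ENSMUSG00000024900.5, chr19:3322334-3385733, plus strand) encodes the carnitine palmitoyltransferase of the outer mitochondrial membrane, the gate through which long-chain fatty acids enter oxidation. It had 11 GR sites and 4 FOXO1 regions. Of these, 6 were held by ctrl., 5 by cal. res. and 7 by CORT, and none was gained in cal. res. The strongest GR site, at chr19:3324656-3327113 in an intron 3.55 kb downstream of the start, stood at percentiles 96.9 and 97.4 in ctrl., 97.3 and 95.9 under cal. res. and 94.5 and 95.9 under CORT. It was near the top of every list. Ctrl. and cal. res. overlapped, and both CORT libraries were at or below the lowest of the other 4 at this rounding. The site held 2 FOXO1 regions. The stronger one (percentile 94.2, 13.6-fold enrichment) had its summit 5 to 36 bp from the GR summits of the 6 libraries, and the weaker one (percentile 48.9) lay 1006 to 1050 bp away. The sequence around the GR summit is shown because this is the place where GR ranked high in all 6 lists, with the letters of a STAT match (TTCNNNGAA) in capitals; it is chr19:3326474-3326673 (mm10, plus strand).
Cpt1a intron, GR summit: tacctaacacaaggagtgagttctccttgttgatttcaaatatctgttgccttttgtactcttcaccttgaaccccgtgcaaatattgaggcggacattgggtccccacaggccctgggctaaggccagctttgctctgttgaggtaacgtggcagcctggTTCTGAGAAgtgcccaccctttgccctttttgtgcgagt

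At the other 4 Cpt1a sites present in all lists the ranks were lower on average and more variable. The site 2.22 kb upstream of the start, which overlapped FOXO1 (percentile 39.6), stood at 86.7 and 24.6 in ctrl., 88.8 and 84 under cal. res. and 70.6 and 84.7 under CORT. The site 0.65 kb downstream of the start stood at 56.1 and 42.9 in ctrl., 84 and 74.8 under cal. res. and 73.6 and 83.7 under CORT, and both ctrl. libraries lay below the other 4. The intronic site 11.4 kb downstream, again with FOXO1 (percentile 61.3), stood at 94 and 43.2 in ctrl., 84.7 and 75.8 under cal. res. and 82.2 and 92.9 under CORT. Among these 3 sites, the ctrl. replicates stood farthest apart at the first and the last. The site 31.5 kb downstream stood at 96.8 and 92.7 in CORT, with 79.2 and 77 in ctrl. and 84.6 and 41.4 in cal. res. The remaining 2 held sites were absent from one or both cal. res. lists. They were an intronic site 13.9 kb downstream, with peaks in ctrl. replicate 1 and both CORT libraries, and a site 39.3 kb upstream whose nearest protein-coding start is that of Ighmbp2.

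Acadm (ENSMUSG00000062908.12, chr3:153922357-153944632, minus strand) encodes the medium-chain acyl-CoA dehydrogenase, which takes the first step of mitochondrial beta-oxidation. It had 11 GR sites and no FOXO1 region. Ctrl. and CORT held 3 each and cal. res. 5. The strongest site lay over the start, at chr3:153944086-153945204, and stood at 97.6 and 67.5 in ctrl., 94.7 and 90.4 under cal. res. and 98.1 and 96.9 under CORT. Only ctrl. replicate 2 was below percentile 90 there. The promoter sequence around the highest summit is shown because it carried a GR peak in every list without a FOXO1 region and held none of the 7 motifs searched; it is chr3:153944689-153944888 (mm10, minus strand).
Acadm promoter, GR summit: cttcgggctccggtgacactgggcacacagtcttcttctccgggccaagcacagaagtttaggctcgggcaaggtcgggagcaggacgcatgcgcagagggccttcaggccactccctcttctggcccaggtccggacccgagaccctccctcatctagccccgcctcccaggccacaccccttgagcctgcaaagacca

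The 2 Acadm sites gained in cal. res. lay side by side upstream of the start and were also present in ctrl. replicate 1 and CORT replicate 2. The site 3.8 kb upstream stood at 71.7 and 81.7 in cal. res., 52.4 in ctrl. replicate 1 and 62.9 in CORT replicate 2. The site 2.83 kb upstream stood at 18.3 and 58.3 in cal. res., 29.7 in ctrl. replicate 1 and 0.092 in CORT replicate 2, the lowest end of that list. At the first site both cal. res. libraries ranked above the 2 other libraries that had a peak. An intronic site 14.9 kb downstream was held by all groups, at 89.5 and 32.3 in ctrl., 65.1 and 72.4 under cal. res. and 50.2 and 81 under CORT. A site 31.6 kb downstream, nearest to the start of Rabggtb, was highest in ctrl., at 79.2 and 63, with 42.1 and 50.6 under cal. res. and 57.5 and 49.7 under CORT.

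Ehhadh (ENSMUSG00000022853.7, chr16:21761287-21787807, minus strand) encodes the bifunctional enzyme of peroxisomal beta-oxidation and is a classic PPARα target. It had 11 GR sites, of which ctrl. held 1, cal. res. 6 and CORT 5, and 3 FOXO1 regions. Gains numbered 5 under cal. res. and 5 under CORT. The site over the start, with its summit in a coding exon, stood at 77.6 in ctrl. replicate 1, 55.4 and 33.8 under cal. res. and 80.3 and 73.5 under CORT, and had no peak in ctrl. replicate 2. The gain there came from the absence of a peak in ctrl. replicate 2.

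The highest ranks near Ehhadh lay far upstream, in introns of Map3k13, whose start is the nearest one. The site 40.4 kb upstream, at chr16:21827447-21828868, stood at 90.8 in ctrl. replicate 1, 78.4 and 88.2 under cal. res. and 85.7 and 80 under CORT, with no peak in ctrl. replicate 2. Its sequence is shown because it is a tandem array: shifted by 24 bases, the 200 bases around the summit matched themselves at 90.3% of positions. The window is chr16:21828356-21828555 (mm10, minus strand).
Map3k13 intron near Ehhadh, GR summit: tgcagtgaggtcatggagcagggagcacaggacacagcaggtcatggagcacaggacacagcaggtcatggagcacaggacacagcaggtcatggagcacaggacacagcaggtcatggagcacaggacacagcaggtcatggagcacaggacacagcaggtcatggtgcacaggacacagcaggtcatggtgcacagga
The best lag of 5 to 60 bases in the other windows of at least 100 bases matched 49.2% or less. Whether reads that could belong to several copies of the repeat bear on this peak was not tested.

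Next to it, a site 38.1 kb upstream stood at 89.8 in ctrl. replicate 1, 85.9 and 69 under cal. res. and 35.6 and 85.2 under CORT. A site 30.8 kb upstream, which overlapped FOXO1 (percentile 56.2), stood at 59.9 in ctrl. replicate 1, 77.5 and 47.4 under cal. res. and 68.2 and 59.9 under CORT. Like the array, both lacked a peak in ctrl. replicate 2. A weak site 6.59 kb upstream was the one held by ctrl., at 27.9 and 9.11, with 6.31 and 15.9 under cal. res. and 43.3 under CORT replicate 2. A site 46.3 kb upstream was held by CORT alone, at 55.6 and 11.8, and had a peak at 60.4 in ctrl. replicate 1. The intronic site 2.53 kb downstream was held by cal. res. and absent from the other 4 lists, but its percentiles of 11.9 and 0.32 place it at the weak end of both cal. res. lists.

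The strongest FOXO1 region of Ehhadh lay inside the gene, at chr16:21782848-21783241, 4.76 kb downstream of the start. It stood at percentile 82.4 with 9.06-fold enrichment, while GR had a peak there in cal. res. replicate 1 (35) and CORT replicate 2 (45.7) and in no other list, so no group held the site. A further intronic FOXO1 region, 6.36 kb downstream (percentile 18.6), overlapped a GR peak of CORT replicate 2 only. The window of the stronger region, chr16:21782926-21783125 (mm10, minus strand), is shown because it holds the FOXO core letters GTAAACA on the opposite strand, in capitals.
Ehhadh intron, FOXO1 summit: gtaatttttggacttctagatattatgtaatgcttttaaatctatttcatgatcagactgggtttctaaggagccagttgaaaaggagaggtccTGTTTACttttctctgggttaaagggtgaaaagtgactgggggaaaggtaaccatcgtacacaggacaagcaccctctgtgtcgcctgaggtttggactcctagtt

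Bdh1 (ENSMUSG00000046598.15, chr16:31422280-31458901, plus strand) encodes the mitochondrial 3-hydroxybutyrate dehydrogenase, which makes the main circulating ketone body in the last step of ketogenesis. It had 10 GR sites, of which 1 was held by ctrl. and 4 each by cal. res. and by CORT, and 1 FOXO1 region. The strongest site, at chr16:31399120-31399893 in intergenic sequence 22.8 kb upstream, stood at 96.4 and 64.1 in ctrl., 87.8 and 78.1 under cal. res. and 55.7 and 90.6 under CORT. The spread within ctrl. covered both cal. res. values. The FOXO1 region there had percentile 98.2 and 19.8-fold enrichment and ranked 147 of 8053. Its summit lay 1 to 13 bp from the GR summits of the 6 libraries. The window is shown because GR and FOXO1 summits coincide there. The window around it, chr16:31399283-31399482 (mm10, plus strand), held none of the 7 motifs.
Bdh1 upstream site, FOXO1 summit: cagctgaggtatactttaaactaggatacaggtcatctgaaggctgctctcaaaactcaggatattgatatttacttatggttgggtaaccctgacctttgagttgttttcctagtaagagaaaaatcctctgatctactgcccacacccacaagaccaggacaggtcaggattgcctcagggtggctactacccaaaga

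The 3 Bdh1 sites gained in cal. res. lay 2.69 kb upstream, at the start and 31.9 kb downstream. The site 2.69 kb upstream stood at 78.7 and 94 in cal. res., 65.4 in ctrl. replicate 2 and 37.7 and 82.8 in CORT. It was the only gained site of the 6 genes with a peak in ctrl. replicate 2 and none in ctrl. replicate 1, the longer ctrl. list. Its window, chr16:31419523-31419722 (mm10, plus strand), is shown because it held a pair of GR half-sites, AGAACA, in capitals.
Bdh1 upstream of the start, GR summit: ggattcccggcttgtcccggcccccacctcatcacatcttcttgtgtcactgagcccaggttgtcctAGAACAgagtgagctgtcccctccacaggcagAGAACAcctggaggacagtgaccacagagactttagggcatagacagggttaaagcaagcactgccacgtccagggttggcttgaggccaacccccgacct
The site at the start stood at 76.1 in ctrl. replicate 1, 74 and 68.9 under cal. res. and 46.4 and 72.2 under CORT. The intronic site 31.9 kb downstream stood at 58 in ctrl. replicate 1, 51.9 and 49.5 under cal. res. and 51.8 under CORT replicate 2. At both, ctrl. replicate 1 had a peak and ctrl. replicate 2 had none. A site 9.76 kb upstream was held by CORT, at 29.7 and 57, and had a peak at 88 in ctrl. replicate 1.

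Pdk4 (ENSMUSG00000019577.6, chr6:5483351-5496309, minus strand) encodes a pyruvate dehydrogenase kinase that keeps pyruvate out of oxidation when fat is burned, and is a known target of GR and FOXO factors. It had 7 GR sites, of which ctrl. held 2, cal. res. 6 and CORT 4, and 4 FOXO1 regions. All 7 had the Pdk4 start as the nearest protein-coding start. The site over the start, at chr6:5495826-5496993, stood at 91.9 and 88.2 in ctrl., 88.7 and 88.3 under cal. res. and 96.3 and 93.8 under CORT. Ctrl. and cal. res. overlapped. The higher CORT percentiles did not hold for both libraries with an equal number of regions, where CORT replicate 2 stood at 80.6 and ctrl. replicate 2 at 88.2. The FOXO1 region at the start stood at percentile 99.9, rank 10 of 8053, with 38.1-fold enrichment and a −log10 q-value of 224. Its summit lay at −320 bp from the start and 32 to 139 bp from the GR summits. The window, chr6:5496529-5496728 (mm10, minus strand), is shown because it carries the strongest FOXO1 peak of the 6 genes; the capitals mark a STAT match and, after it, the FOXO core GTAAACA.
Pdk4 promoter, FOXO1 summit: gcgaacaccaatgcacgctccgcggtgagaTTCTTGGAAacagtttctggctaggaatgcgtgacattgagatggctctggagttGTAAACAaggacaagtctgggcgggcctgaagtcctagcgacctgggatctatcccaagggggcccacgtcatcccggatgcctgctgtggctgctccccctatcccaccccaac

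A site 2.61 kb upstream of Pdk4 was also held by all groups and overlapped FOXO1 (percentile 73.7). It stood at 58.7 and 46.7 in ctrl., 61.7 and 69.1 under cal. res. and 28.9 and 71.9 under CORT. The 4 sites gained in cal. res. lay downstream of the start. The site 11.1 kb downstream, in untranslated sequence of the gene, stood at 64.8 in ctrl. replicate 1, 56.9 and 69.8 under cal. res. and 28.7 and 72.1 under CORT. The site 25.1 kb downstream, with a weak FOXO1 region (percentile 11.1), stood at 50.5 in ctrl. replicate 1, 63.2 and 30.4 under cal. res. and 21.1 and 46.6 under CORT. These 2 were gained in CORT as well. The site 22.1 kb downstream had peaks in ctrl. replicate 1 (47.7) and cal. res. (27.5 and 44.5) and in neither CORT library. The site 46.3 kb downstream had peaks in cal. res. (32 and 67.6) and CORT replicate 2 (15) and in neither ctrl. library. The remaining FOXO1 region, 13.6 kb upstream (percentile 42.9), overlapped peaks of cal. res. replicate 2 (52.9) and CORT replicate 2 (1.9).

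Fgf21 (ENSMUSG00000030827.5, chr7:45613886-45615490, minus strand) encodes a hormone that the fasted liver secretes under PPARα. It had 13 GR sites, the most of the 6 genes, but lies in a gene-dense region and had its own start nearest at 4 of them. Ctrl. held 4, cal. res. 3 and CORT 5. No merged site covered the Fgf21 start, and the nearest lay 1.1 kb upstream with a peak in CORT replicate 2 only. The site 4.55 kb downstream was held by all groups, at 78.2 and 20 in ctrl., 28.1 and 59.2 under cal. res. and 25 and 44.5 under CORT. The site 5.79 kb downstream was gained in cal. res. and CORT, at 64.6 in ctrl. replicate 1, 43 and 36 under cal. res. and 41.2 and 47.4 under CORT.

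The strongest site of the Fgf21 window, at chr7:45567148-45569347, lay 47.2 kb downstream, nearest to the start of Bcat2, a branched-chain amino acid aminotransferase. It stood at 98.1 and 95.4 in ctrl., 78 and 80.5 under cal. res. and 94.8 and 98.3 under CORT. Both cal. res. libraries lay below the other 4. It overlapped the 1 FOXO1 region of the window (percentile 85.7, 9.82-fold), with summits 5 to 70 bp apart. Its sequence is shown because it showed the largest score difference between groups among the sites present in all lists; it is chr7:45568181-45568380 (mm10, minus strand) and held none of the 7 motifs.
Fgf21 window, Bcat2 end, GR summit: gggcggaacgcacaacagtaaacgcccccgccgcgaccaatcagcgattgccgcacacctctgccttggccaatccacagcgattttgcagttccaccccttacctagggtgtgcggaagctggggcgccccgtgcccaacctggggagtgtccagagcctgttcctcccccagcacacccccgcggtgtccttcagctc
A pair of sites 26.2 and 41.4 kb downstream, in the coding sequence and an intron of Bcat2, were held by ctrl. and CORT and not by cal. res. The first stood at 5.67 and 31.5 in ctrl., 25.4 in cal. res. replicate 2 and 51.8 and 61.8 in CORT. The second stood at 68 and 62.7 in ctrl., 31.3 in cal. res. replicate 1 and 63.8 and 77.3 in CORT.

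**Figure D3:**
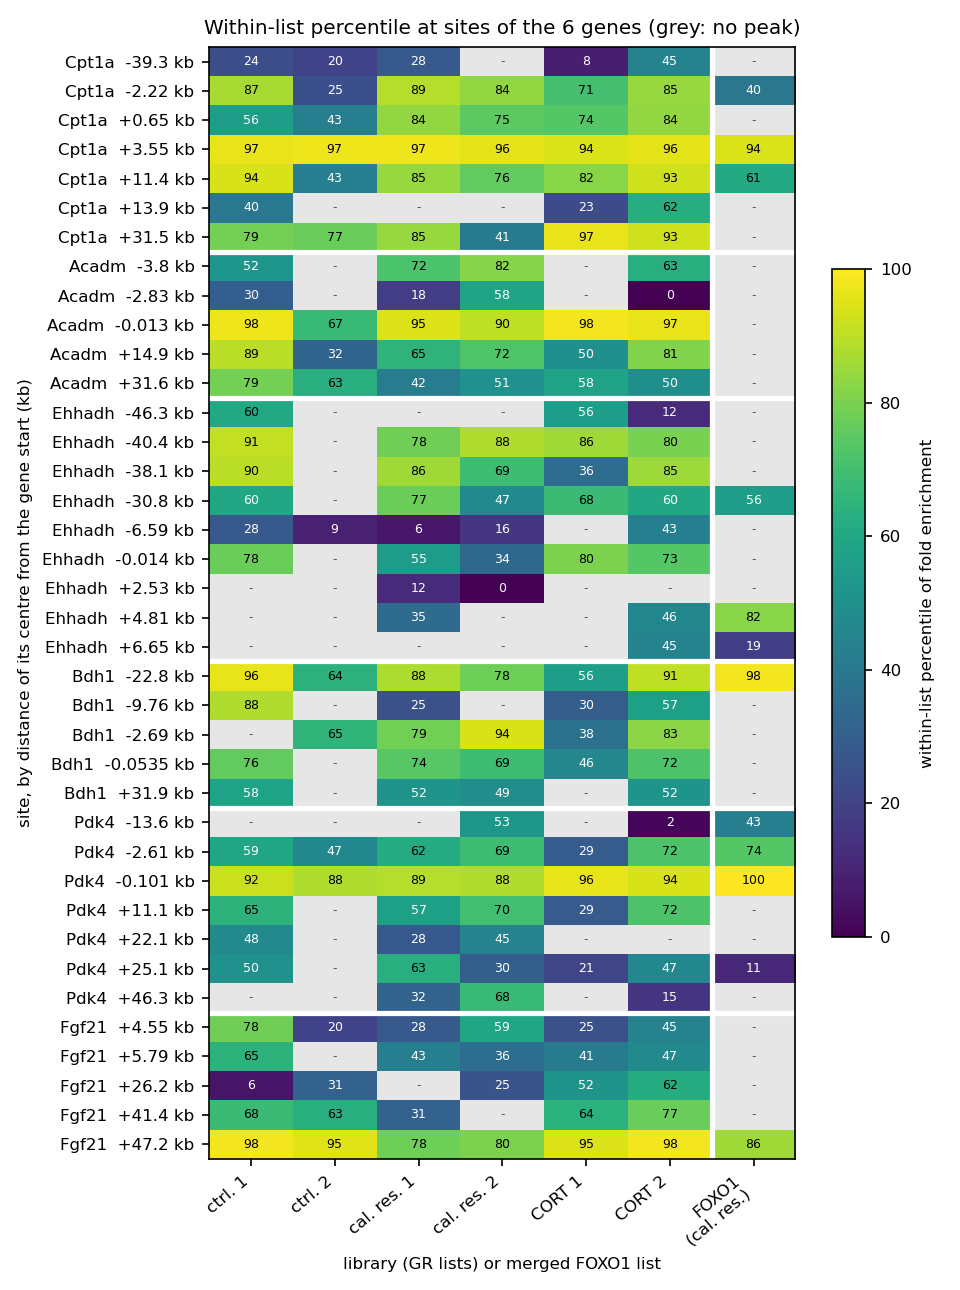
Within-list percentile (colour and printed value, 0 to 100) of fold enrichment in the 6 GR lists and the merged FOXO1 list (columns) at the 35 sites held by at least 1 group and 3 more sites that overlap FOXO1 (rows, by gene and distance from its start); grey cells have no peak. The column of ctrl. replicate 2, the shortest list, is grey at 5 of the 6 Ehhadh sites and 4 of the 6 Pdk4 sites that cal. res. held, and at 0 of the 5 at Cpt1a. That list had a peak at 31.7% of the 63 sites and at 22.3% of all merged sites. Acadm has no FOXO1 value.

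Of the 13 sites with a peak in all 6 lists, 7 overlapped FOXO1 (53.8%), close to the 50.7% of all such sites. Of the 29 sites held by cal. res., 9 did (31%), against 39.8% of all sites held by cal. res. All 13 FOXO1 regions of the 6 genes overlapped a GR peak of at least 1 library. That share was not computed over all 8053 FOXO1 regions, but 7130 merged GR sites overlapped one. The overlap is therefore not read as a trait of the 6 genes. Since FOXO1 was mapped in cal. res. livers only, whether its binding differed between the groups could not be examined.

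The 7 consensus motifs were searched on both strands in 200 bp around the GR summit. GR half-site letters (AGAACA) occurred at 8 of the 63 sites (12.7%, all sites 18.4%) and the full palindrome GNACANNNTGTNC, which can include the half-site, at 1 (1.59%, all sites 1.89%). The FOXO core (GTAAACA) occurred at 3 (4.76%, all sites 5.19%), the C/EBP letters (TTGCNNAA) at 9 (14.3%, all sites 15.1%), the STAT letters (TTCNNNGAA) at 4 (6.35%, all sites 8.16%) and the E-box (CACGTG) at 4 (6.35%, all sites 4.72%). The DR1 of PPAR and HNF4, AGGNCANAGGNCA, occurred at 0 of the 63 and at 1.14% of all sites. Over the 35 sites held by a group, the half-site occurred at 2 (5.71%, against 18.4% of all held sites), the C/EBP letters at 3 (8.57%, against 16.9%) and the palindrome at 0 (against 2.65%). Around FOXO1 summits the FOXO core was found at 3 of the 13 regions and at 18.9% of all FOXO1 regions. A match is a description of letters and not of a bound site.

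The question whether GR rank differed between the groups was tested at the sites with a peak in all 6 lists, 8095 in all and 13 of the 6 genes. Each library's fold enrichments at these sites were ranked and turned into normal scores, and the groups were compared with limma over all 8095 sites with Benjamini-Hochberg adjustment. For cal. res. against ctrl., 0 sites passed an adjusted p of 0.05 (0%) and 801 had an unadjusted p under 0.05 (9.89%), of which 2 of the 13 belonged to the 6 genes. For CORT against ctrl., 0 passed (0%) and 909 were under 0.05 unadjusted (11.2%), with 2 of the 13 among them. For cal. res. against CORT, 0 passed (0%) and 1274 were under 0.05 unadjusted (15.7%), with 1 of the 13. The smallest adjusted p over all sites was 0.344, 0.287 and 0.154. The median difference in score at the 13 sites was −0.04, −0.25 and 0.52, beside 0.02, −0.01 and 0.06 at all 8095 sites. The sign of these medians depended on the setting. Over 14 settings, in which 6 to 21 sites of the 6 genes entered, they ran from −0.08 to 0.30 for cal. res. against ctrl., from −0.48 to 0.08 for CORT against ctrl. and from −0.31 to 0.53 for cal. res. against CORT. With the name style of the library as a covariate 0 sites passed in any comparison, and the median was 0.29 for cal. res. against ctrl.

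The largest difference at these sites was at the strongest site of the Fgf21 window, where the scores were 1.38 and 1.5 in ctrl., 0.06 and 0.32 under cal. res. and 0.95 and 1.42 under CORT. The cal. res. score was lower than that of ctrl. by a difference of −1.25 ± 0.36 (SE, n = 2 per group, limma adjusted p = 0.414) and lower than that of CORT by −0.99 ± 0.36 (limma adjusted p = 0.265). Neither passed the adjusted threshold. Within the name style of cal. res. the ctrl. library, at 1.5, was above both cal. res. libraries. The other site with an unadjusted p under 0.05 for cal. res. against ctrl. was that 0.65 kb downstream of the Cpt1a start, with scores of −1.30 and −0.47 in ctrl., 0.32 and 0.11 under cal. res. and −0.38 and −0.23 under CORT. Cal. res. was higher than ctrl. there by 1.10 ± 0.40 (SE, n = 2 per group, limma adjusted p = 0.465). For CORT against ctrl. these were the Acadm site 31.6 kb downstream (−1.13 ± 0.40, limma adjusted p = 0.376) and the Fgf21 site 4.55 kb downstream (−1.08 ± 0.46, limma adjusted p = 0.443), both lower in CORT. At the sites over the Acadm and Pdk4 starts the differences between cal. res. and ctrl. were small beside their errors, at 0.24 ± 0.46 and −0.07 ± 0.39. The strongest Cpt1a site, in an intron, had −0.04 ± 0.38. The merged interval of the Cpt1a site with the difference of 1.10 ± 0.40 spans the Cpt1a start, but its GR summits lay 1002 to 1755 bp downstream of the start. With 2 libraries against 2 an exact permutation test of a single site cannot give a p below 0.333, and the fit left 3 residual degrees of freedom.

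**Figure D4:**
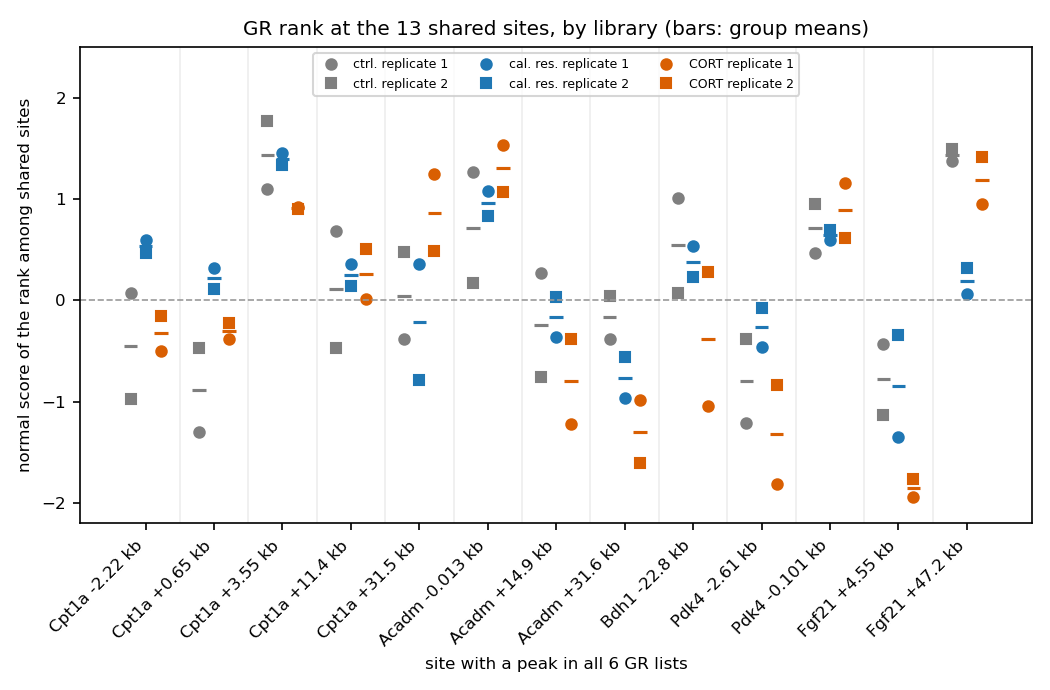
Normal score of the rank of GR fold enrichment among the 8095 shared sites (vertical axis, no unit; 0 is the median rank) at the 13 shared sites of the 6 genes (horizontal axis), one symbol per library and a bar for each group mean of 2. At the last site, 47.2 kb downstream of the Fgf21 start, both cal. res. libraries (0.06 and 0.32) lie below the other 4, and no site passed the adjusted threshold.

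The 42 other genes of fatty acid uptake, activation, oxidation, ketogenesis and their regulation had 442 sites. All 42 had a site held by cal. res. and 34 had a FOXO1 region within 50 kb. Their sites were held by ctrl. in 25.8%, by cal. res. in 35.1% and by CORT in 52% of cases, gained in cal. res. in 14.7% and in CORT in 28.5%, and overlapped FOXO1 in 17.6%. The share held by cal. res. thus lay between that of the 6 genes (46%) and that of all sites (27.9%), and the share gained in CORT, unlike that of the 6 genes, lay above that of all sites. The highest mean percentiles of a best site in this list were 97.5 at Acadvl, the very-long-chain acyl-CoA dehydrogenase, 97.1 at Ppara, which encodes PPARα, and 97 at Eci2, an enoyl-CoA isomerase. Of the 11 sites in the Acadvl window, only 1 had the Acadvl start as the nearest protein-coding start.

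The profile of the best site over the 6 lists was compared between the 6 genes and these 42 as the mean absolute difference in percentile, with an absent peak taken as 0. The nearest profile to Cpt1a was that of Acadvl (1.41 points), whose best site, 39.3 kb upstream of its start, stood at 97.4 and 98.5 in ctrl., 96.5 and 96.6 under cal. res. and 97.8 and 97.8 under CORT. The nearest to Pdk4 was Crot (2.91 points), to Acadm Mlycd (3.45 points) and to Fgf21 Hadh (4.49 points). Bdh1 was nearest to Decr2 (7.81 points) and Ehhadh to Cyp4a14 (9.99 points). The order of the 6 genes by the mean percentile of their best site was Cpt1a (96.3), Pdk4 (91.2), Acadm (90.9), Fgf21 (90.8), Bdh1 (78.8) and Ehhadh (70.5). Pdk4, Acadm and Fgf21 differed by less than the spread between libraries.

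The windows end at a set distance, and the sites on either side of the limit are given as a description. The farthest site inside lay at 35.4 kb for Acadm, 39.3 kb for Cpt1a, 43.5 kb for Bdh1, 46.3 kb for Ehhadh and Pdk4 and 49.3 kb for Fgf21, with mean percentiles, an absent peak taken as 0, of 0.744 to 21.3. The nearest site outside lay at 53.1 kb for Pdk4 (mean percentile 56.2) and 61.2 kb for Fgf21 (58.5), each with a peak in 5 lists, so a wider window would add a stronger site to both. For Ehhadh it lay at 56.6 kb (3.91), for Cpt1a at 66.5 kb (34.1), for Bdh1 at 70.9 kb (31.5) and for Acadm at 487 kb (4.64).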

How the data were processed

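GR and FOXO1 ChIP-seq of mouse liver was taken as the peak lists that the authors deposited, 1 per GR library and 1 for FOXO1 merged over its libraries. Per the submitters' processing notes, BWA, SAMtools, Picard, MACS2, bedtools and deepTools and the mm10 build were used. The deposited lists hold the fold enrichment of each summit over local background, a ratio, and the −log10 of its p-value and q-value as the authors' peak caller wrote them. The largest q-value was 0.0994 to 0.0998 in the GR lists and 9.84e-06 in the FOXO1 list, which was cut more strictly. Summits of 1 region were reduced to the one with the highest fold enrichment, and regions of the 6 GR lists sharing at least 1 bp were merged (Python 3.11.15, pandas 2.3.3, NumPy 2.4.6). The read-count part of the study's rule for a group's sites could not be applied to peak lists. Ranks at shared sites were fitted with limma 3.58.1 in R 4.3.3, two-sided with Benjamini-Hochberg adjustment, and the script was tested on simulated data. There, 32 of 100 sites shifted by 2 score units and 86 of 100 shifted by 3 were recovered, with 4 false calls. The shifts were set after a first version had been seen. Both exceed the largest difference at the sites of the 6 genes (−1.25), so the absence of calls does not show equal ranks. Sequences and motifs were read from the mm10 reference (pysam 0.24.0) and plots drawn with matplotlib 3.10.9.

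All sites held by a group were described, those in 1 list only by counts; from the list of 42 other pathway genes, the 4 with the highest best-site mean percentile and the nearest profile to each of the 6 genes were named. One of these genes and the sequence of 1 site are not reported here. The genes and lists were chosen with earlier results of these data known. The alternatives were other ranks, a q-value of at most 1e-05, an equal number of regions, other windows and group rules, a replicate block, the name style and leaving out each library. The lists hold no read counts, so no counting interval was given. The limma p-values set each difference against the spread within groups of 2 libraries, moderated over all sites tested.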

Additional observations from a re-analysis of the deposited data

How the results depend on the processing

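The counts of sites at the 6 genes depended on how the lists were compared. With an equal number of regions, ctrl. held 11 and CORT 11 sites and CORT gained 4. With a q-value of at most 1e-05, ctrl. held 8 (20%) and CORT 18 (45%) of 40 sites, and shares over all sites were not computed. A window of 25 kb held 38 sites, with 11 held by ctrl. (28.9%) and 17 by CORT (44.7%). Gains there were 9 in cal. res. (23.7%) and 7 in CORT (18.4%). These shares were close to those at 50 kb (27%, 44.4%, 23.8% and 19%), so these counts fell with the number of sites. A window of 100 kb gave 19 of 89 sites gained in CORT (21.3%, all sites 24.3%). Counting only sites with the gene's own start nearest left 11 of 43 for ctrl. (25.6%, all sites 21.4%). When a peak in either library was enough, ctrl. held 45, cal. res. 38 and CORT 52, so that ctrl. exceeded cal. res., with 5 gains for cal. res. and 16 for CORT. Leaving out 1 library at a time gave 17 to 42 sites for ctrl., 29 to 35 for cal. res. and 28 to 52 for CORT, with 3 to 19 gained in cal. res. and 1 to 35 gained in CORT. The count of 42 and the gains of 3 and 1 came without ctrl. replicate 2, and the 52 and 35 without CORT replicate 1. The latter were 82.5% and 55.6% of 63 sites, and the shares over all sites were not computed for that setting. FOXO1 overlap stayed at 11 or 12 sites when a library was left out. The median over the genes of the best-site mean percentile was 90.9 and fell to 83.4 with an equal number of regions, and motif matches summed over the 7 motifs went from 29 to 17 in windows of 100 bp, which hold fewer bases.

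In the limma fit, 0 sites passed in each comparison under each alternative, except that quantile-normalised log2 fold enrichment gave 5 sites for CORT against ctrl., none of them at the 6 genes. Deviations of libraries with the same replicate number correlated at −0.10, −0.12 and 0.10 between pairs of groups, so the numbers were not taken to pair the libraries, and with the replicate number as a block 0 sites passed in any comparison. The median score difference at the sites of the 6 genes changed sign in each comparison; with an equal number of regions it was 0.08 for CORT against ctrl. and −0.31 for cal. res. against CORT. Of 127 values under alternatives, most of them counts, 25 moved. The counts were compared without regard to the number of sites in each setting. Read depth per library, which limits whether a missing peak means less binding, was not examined.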
